A study of Mus musculus with 28 samples.

Results

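Replication-dependent histone genes are the clustered genes that code for the H1, H2A, H2B, H3 and H4 proteins that package newly copied DNA. They were described here in stem cells of the mouse hair follicle, as 67 genes of the 56691 listed in the bulge table. The members are the genes whose symbol has the form of a clustered histone name, old (Hist1h1c) or new (H1f2). Excluded were 5 pseudogenes and 7 genes that match the letters of the rule but are no clustered histone genes, H1f0 and H1f10 among them. The set holds 6 genes of H1, 18 of H2A, 18 of H2B, 12 of H3 and 13 of H4. The linker genes (H1) bind the DNA between nucleosomes, and the other families form the nucleosome core. The positions in the bulge table, which names no genome build, place 54 members on chromosome 13 between 21899933 and 24118834, 10 on chromosome 3 between 96127181 and 96177448, 2 on chromosome 11 and 1 on chromosome 6.

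RNA came from sorted cells of mice at postnatal day 69, either wild type (WT) or Alkbh5 conditional knockout (cKO). The Alkbh5 protein strips m6A, a methyl mark, off RNA. There were 3 RNA-seq datasets with 2 WT and 2 cKO mice each. They were bulge stem cells by SHERRY2 from 200 ng of RNA, hair germ stem cells by SHERRY2 from 40 ng, and the same hair germ cell type by SMART-seq from 40 ng. The bulge keeps slow-cycling stem cells, and the hair germ just below it divides early when hair growth starts. SHERRY2 cuts and tags RNA/cDNA hybrids with Tn5, and SMART-seq amplifies cDNA before the library is made. The sources used here do not give the Cre driver, the deleted exon, the strain, the sorting markers or how cDNA was primed.

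In a dividing cell, messages of these genes are made in S phase, the time of DNA copying, under NPAT and the cyclin E kinase, and they fall away when copying ends. Most of them end in a stem-loop bound by SLBP and carry no poly(A) tail, so a library primed at poly(A) tails catches them poorly. Some members, H1f2, H2bc4 and H2bc21 among them, have been described with polyadenylated messages in cells that have stopped dividing. Many H2A and H2B genes lie head to head and share 1 promoter.

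A pair of promoter stretches is shown, each for a result described further on: that of H1f2, the member called in the bulge, and the stretch between the starts of H2ac6 and H2bc4, whose read counts differ widely. Both are from RefSeq on GRCm38.p6. The H1f2 stretch is chr13:23738557-23738806 on the plus strand, the 250 bases before the gene's start. The other is chr13:23683960-23684198, written on the minus strand, the strand of H2ac6, so that it ends at the start of H2ac6. Capitals mark CCAAT (a site type common in S phase promoters), TATAAA, the octamer ATTTGCAT known from H2B promoters, and AAACACA of H1 promoters, on either strand.
H1f2 promoter: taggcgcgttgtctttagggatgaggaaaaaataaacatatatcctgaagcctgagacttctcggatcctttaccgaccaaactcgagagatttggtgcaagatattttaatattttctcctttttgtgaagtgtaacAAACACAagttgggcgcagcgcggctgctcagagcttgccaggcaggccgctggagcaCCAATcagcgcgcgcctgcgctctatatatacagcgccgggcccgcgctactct
H2ac6 to H2bc4: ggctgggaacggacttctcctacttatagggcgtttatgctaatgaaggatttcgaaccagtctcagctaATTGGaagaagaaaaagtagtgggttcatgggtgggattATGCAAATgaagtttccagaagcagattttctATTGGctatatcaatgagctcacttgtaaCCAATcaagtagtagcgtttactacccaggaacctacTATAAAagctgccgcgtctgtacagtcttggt

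In these letters, H1f2 held 1 CCAAT and 1 AAACACA, both on the gene's own strand. The stretch between H2ac6 and H2bc4 held 3 CCAAT, of which 1 was on the H2ac6 strand, 1 TATAAA on the H2ac6 strand and 1 octamer on the H2bc4 strand. A promoter entry was found for 58 of the 67 members. H2bc4, H2bc21, H2bc24, H2bc27, H2ac25, H3c1, H3c7, H4c14 and H4c16 had none. Over the 250 bases before the start, CCAAT on either strand stood in 6 of 6 H1, 17 of 17 H2A, 14 of 14 H2B, 8 of 10 H3 and 3 of 11 H4 promoters, against 33.8% of all 32851 promoters in the RefSeq table. The octamer stood in 6 of 17 H2A and 6 of 14 H2B promoters and in 0 of the other families, against 1.6% of all. Head-to-head H2A and H2B genes share much of these 250 bases, so the counts of the 2 families are not independent. AAACACA stood in 5 of 6 H1 promoters, against 6.25% of all, and TATAAA stood in 28 of the 58 members, against 12.4%. A match is a string of letters and was not tested as a binding site.

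Depth ranged from 14676168 to 21187283 reads in genes per bulge library, from 9001396 to 14416601 in SMART-seq, and from 488648 to 2317407 in hair germ SHERRY2. Levels are given in CPM, the reads of a gene scaled to the total reads in genes of its library, and 3 reads correspond to 0.142 to 0.204 CPM in the bulge, 0.208 to 0.333 in SMART-seq and 1.29 to 6.14 in hair germ SHERRY2. The targeted gene, Alkbh5, had 2095 and 1351 reads in WT, against 68 and 50 in cKO bulge libraries (edgeR log2 fold change -4.97, adjusted p = 0.000492, n = 2 and 2). In hair germ SHERRY2 it had 95 and 30 reads in WT, against 27 and 16 in cKO. In SMART-seq it had 1903 and 1102 reads in WT, against 1141 and 946 in the libraries labelled cKO, whose mean CPM was 83.5% of WT. So the SMART-seq directions below rest on the labels alone. The bulge markers (Cd34, Krt15 and 8 others) all had reads in the bulge. In the hair germ lists, Cdh3 was detected in each library and Dcc was at 0 reads in all 4 bulge and in 3 of 4 SMART-seq libraries.

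The libraries differed first in how much histone RNA they held at all. Summed over the members, the bulge libraries held 119.6 and 226 CPM in WT and 79.2 and 84.7 CPM in cKO. Hair germ SHERRY2 libraries held 149 and 276 CPM in WT and 132 and 132 CPM in cKO, from 868 reads in all. The SMART-seq libraries held 1395 and 2407 CPM in WT and 2478 and 583 CPM in those labelled cKO. Every SMART-seq library was above every SHERRY2 library, and the lowest of them was the library labelled cKO mouse 2. Cells, protocol, mice and counting all differ between bulge SHERRY2 and SMART-seq and cannot be told apart. Hair germ SHERRY2 and SMART-seq share the labelled cell type, and whether they share mice is not stated.

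**Figure D1:**
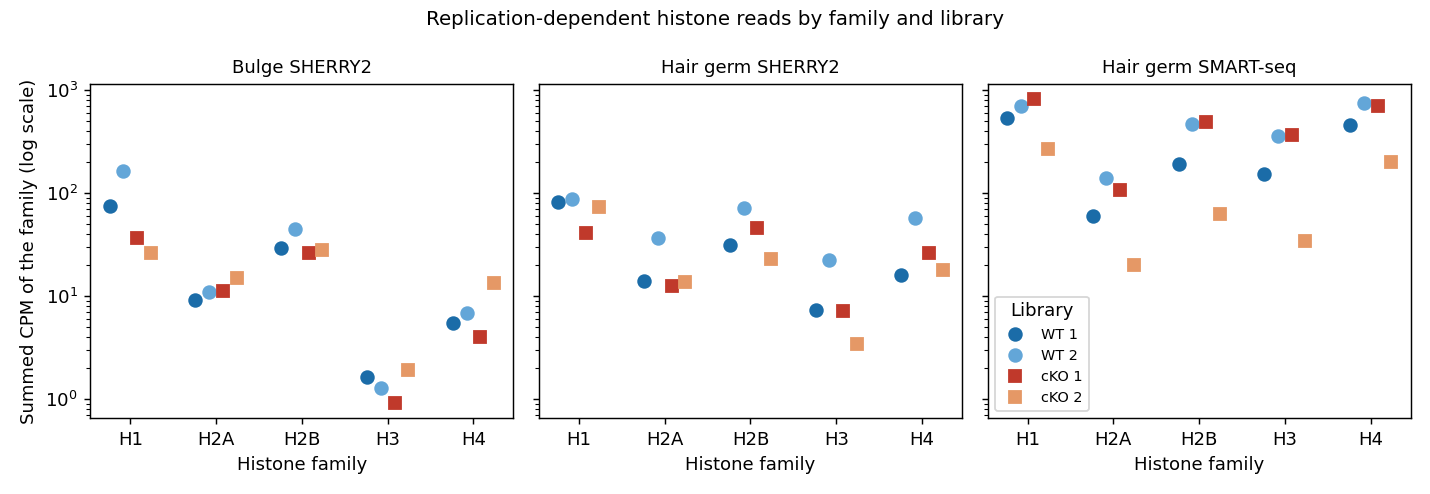
Summed CPM (log scale) of each histone family in each library of the 3 datasets, with circles for WT and squares for cKO mice. H1 summed to 26.4 to 162 CPM in the bulge and to 267 to 818 CPM in SMART-seq, and H3 to 0.917 to 1.92 CPM in the bulge and to 34.5 to 366 CPM in SMART-seq.

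The bulge reads sat in a handful of members. Of 8741 member reads, 55.5% fell on H1f2 and 86.9% on H1f2, H2bc4, H2ac25 and H2bc21 together. The median member had 7 reads over the 4 bulge libraries, 11 members had none, and 27 had 10 or more. In SMART-seq the median was 750 reads, 60 members had 10 or more, and the first 4 (H1f2, H1f4, H4c4, H1f3) held 33.9% of the 86516 reads. Per length, in the authors' FPKM (fragments per kilobase of exon, scaled to depth), H1f2 was also the highest member of the bulge at 74.3 ± 39.0 FPKM in WT (SD, n = 2). H2bc4 followed at 20.6 ± 10.9, H4c9 at 6.52 ± 1.78, H2ac25 at 4.49 ± 0.69 and H2bc21 at 3.92 ± 0.43 FPKM. The WT values of the last 3 genes lay between 3.61 and 7.78 FPKM, and those of H4c9 and H2bc21 did not overlap.

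Most members stood far higher in SMART-seq than in the bulge, and these well-read ones did so by less or not at all. Of 45 members with WT reads in both, 39 had a WT mean CPM over 10 times higher in SMART-seq than in the bulge, and the median ratio was 162. H2bc21 was the other way, with a ratio of 0.327 (10.3 CPM in the bulge and 3.36 in SMART-seq). H2ac25 had a ratio of 0.75, H2bc4 of 1.09, H1f2 of 1.72, H4c9 of 4.80 and H2bc27 of 6.27. H1f4, a linker gene like H1f2, stood at 0.697 CPM in the bulge and 207 CPM in SMART-seq. A further 15 members had WT reads in SMART-seq and none in the bulge, and 7 had none in either. These ratios describe 2 libraries on each side and carry no test.

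**Figure D2:**
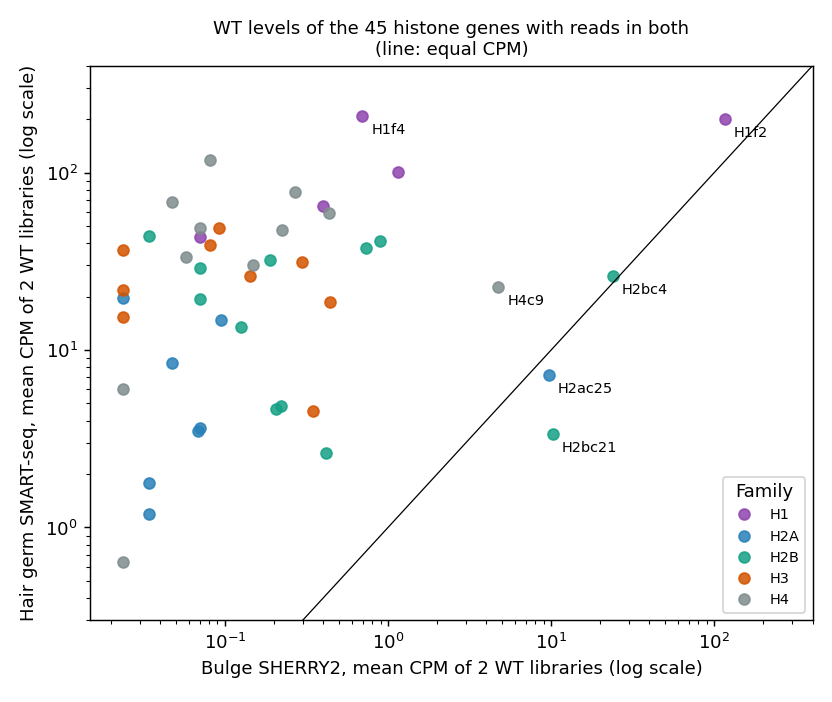
Mean CPM of the 2 WT libraries in bulge SHERRY2 (x axis) and in hair germ SMART-seq (y axis), both on log scales, for the 45 members with reads in both, coloured by family, with a line at equal CPM. H2bc21 and H2ac25 lie below the line, H2bc4 and H1f2 close to it, and the bulk of the members far above it.

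Bulge reads lay mostly in members with a long annotated exonic size. H1f2, H2bc4, H2ac25 and H2bc21, with 86.9% of those reads, are each over 1000 bases. The ratio to SMART-seq did not follow size throughout. Its highest values, 1551, 1446 and 1442, belonged to H3c7, H4c14 and H4c4, at 1261, 1630 and 1138 bases. The 18 members with an exonic size of 1000 bases or more in the bulge table held 8032 of the 8741 bulge reads, with a median of 30.5 reads, and the 49 shorter ones a median of 5. In SMART-seq the medians were 1368 and 649 reads. Head-to-head genes could be compared at 1 promoter. In 12 pairs of an H2A and an H2B gene the starts lay 176 to 306 bases apart. Of these, H2ac6 had 8 reads in the bulge and its partner H2bc4 had 1264. In SMART-seq the same pair had 168 and 1630 reads. H2ac20 had 2 bulge reads and its partner H2bc21 had 709, whereas in SMART-seq the order was turned, with 343 and 151. The other 10 pairs had 0 to 10 bulge reads for the H2A gene and 0 to 56 for the H2B gene.

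In the bulge, H1f2 was lower in the cKO, and no other member passed the test. H1f2 codes for the linker histone H1.2, and the bulge table places it on chromosome 13 at 23922791 to 23924350, plus strand. It had 1545 and 2332 reads (72.9 and 159 CPM) in WT and 523 and 453 reads (34.2 and 22.9 CPM) in cKO. Both cKO libraries were below both WT libraries, while the WT pair itself spread by a factor larger than the cKO pair. The log2 fold change was -2.18 (SE 0.35, adjusted p = 0.0242, edgeR quasi-likelihood test over 15672 genes, n = 2 and 2). Leaving out each library in turn gave -2.63 to -1.56 with adjusted p from 1.25e-16 to 0.0351.

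The filter on low counts kept 12 members, and 1 of the 12 was called, lower in the cKO. Over all genes tested the share called was 3.04%, and 1.6% were called lower. At an unadjusted p under 0.05 there were 2 of 12 members, against 18.9% of all genes. Of the 12, 5 had a positive and 7 a negative log2 fold change, with a median of -0.15 (-0.01 over all genes). In CPM, groups did not overlap for 3 of the 12 members, against 54.4% of all genes. A p-value here measures only the spread between these mice, and the fit draws each gene's spread toward that of all genes. In sorted bulk cells, fewer cells of a kind and less RNA per cell cannot be told apart.

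Next to H1f2 stood H2bc4, an H2B gene. It had 316 and 480 reads (14.9 and 32.7 CPM) in WT and 207 and 261 (13.6 and 13.2 CPM) in cKO. The WT libraries were above the cKO libraries, but WT mouse 1 was close to them. The log2 fold change of -0.99 (SE 0.34) did not pass after adjustment (edgeR, adjusted p = 0.165). It passed with no filter on low counts (adjusted p = 0.00609) and without WT mouse 1, cKO mouse 1 or cKO mouse 2 (adjusted p = 0.0291, 0.019 and 0.0357), and it was -0.37 (adjusted p = 0.72) without WT mouse 2.

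Of the other well-read members, H2bc21 had 234 and 139 reads (11.04 and 9.47 CPM) in WT and 129 and 207 (8.45 and 10.5 CPM) in cKO. H2ac25, an H2A gene on chromosome 11 called H2aw in the bulge table, had 182 and 157 reads (8.59 and 10.7 CPM) in WT and 163 and 267 (10.7 and 13.5 CPM) in cKO. For both genes the groups overlapped, with log2 fold changes of -0.29 (SE 0.28) and 0.16 (SE 0.27, and -0.03 without cKO mouse 2). H4c9, an H4 gene, had 81 and 83 reads (3.82 and 5.66 CPM) in WT and 32 and 93 (2.10 and 4.70 CPM) in cKO, again overlapping, with a log2 fold change of -0.64 (SE 0.49, edgeR adjusted p = 0.548). H2ac25 overlaps an annotated gene, Trim17, on its own strand in that table.

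The remaining tested members were thinly read. H1f3, H1f4 and H1f5, linker genes, had 2 to 35 reads in any library, and their log2 fold changes ran from -0.44 to 0.73. H2bc6, H2bc8 and H2bc27 had 4 to 32 reads, and H3c4 had 2 to 13. H1f4 and H2bc6 overlap on the same strand in the bulge table, so reads of the 2 may not be separable. The lowest adjusted p of these 7 genes in the edgeR test was 0.726, for H1f4. Their standard errors were 0.70 to 1.01 on the log2 scale, so a 2-fold difference was not detectable at these read counts. Below the filter, the highest members of their families included H2ac8 with 10 reads in all, H2ac6 with 8, H3c15 with 18, H3c11 with 15, and H4c1 with 7 and 8 reads in WT, against 8 and 8 in cKO.

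**Figure D3:**
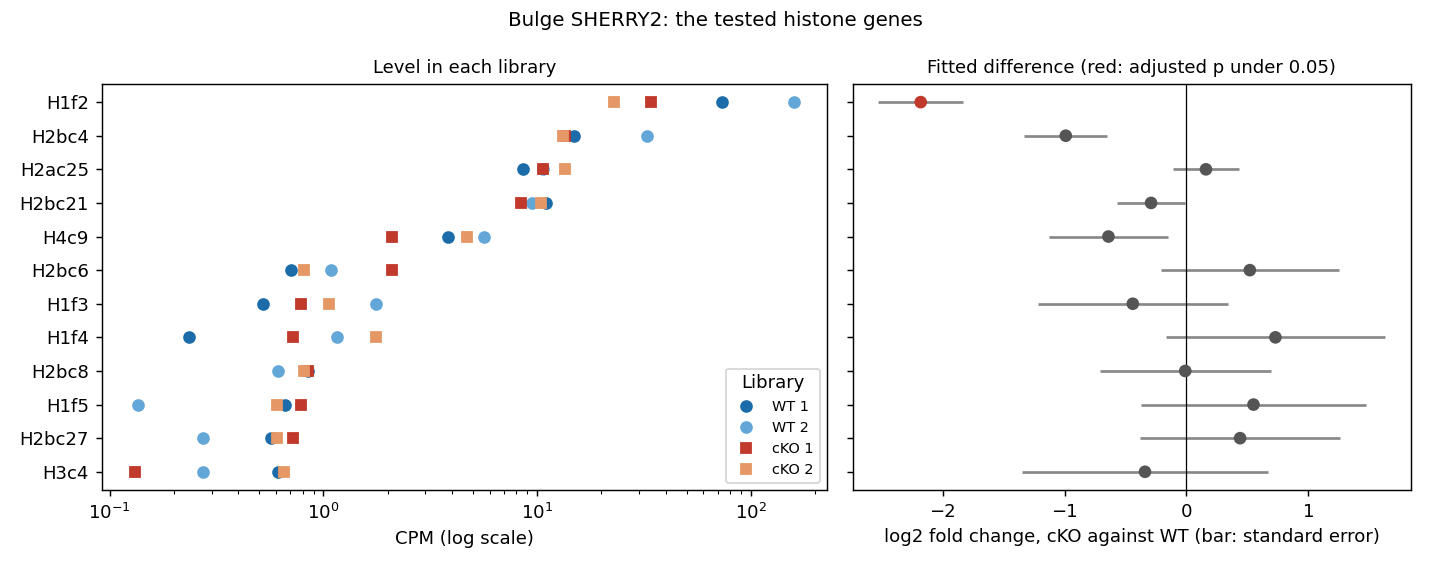
The 12 tested histone genes in the bulge: CPM in each library on a log scale (left; circles WT, squares cKO) and the log2 fold change of cKO against WT with its standard error (right; red for an adjusted p under 0.05). H1f2 is the single red point at -2.18, and the thinly read genes at the bottom have wide error bars on both sides of 0.

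Without H1f2, the summed level of the members was 46.7 and 67.2 CPM in WT and 45.0 and 61.9 CPM in cKO bulge libraries, so the groups overlapped. By family, H1 summed to 74.5 and 162 CPM in WT and 36.8 and 26.4 CPM in cKO. H2A summed to 9.06 and 10.97 in WT and 11.1 and 14.9 CPM in cKO, and H4 to 5.43 and 6.81 in WT and 3.99 and 13.3 CPM in cKO. H2B summed to 29.0 and 45.0 CPM in WT and 26.4 and 28.2 CPM in cKO, and H3 to 1.65 and 1.29 in WT and 0.917 and 1.92 CPM in cKO. In CPM, the cKO libraries were both below WT for H1 and H2B, both slightly above for H2A, and on either side for H3 and H4. The edgeR fits rescale the libraries (TMM). H2bc8, for example, was at 113% of WT in CPM, with a fitted log2 fold change of -0.01. The narrow H2A order was not checked on that scale.

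Some genes that accompany DNA copying rose in the cKO. Of 22 S phase genes, 22 had a positive log2 fold change (median 1.12) and 4 were called higher: Rrm1 and Rrm2 of ribonucleotide reductase, the thymidine kinase Tk1 and the DNA ligase Lig1. Their summed level was 1029 and 820 CPM in WT and 1599 and 2355 CPM in cKO. The histone sum was higher in both WT libraries, but without H1f2 the groups overlapped, as given above. Of 20 genes of G2 and M phase, 20 were positive (median 0.97) and 2 were called higher, Mki67 and Top2a, against 1.44% of all genes called higher.

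Among 22 factors of histone gene transcription and message 3' ends, 1 was called higher (1.44% of all genes), the cyclin E gene Ccne1. It had 79 and 39 reads in WT, against 169 and 321 in cKO, all cKO above WT (log2 fold change 1.91, SE 0.35, edgeR adjusted p = 0.0351). The call was lost without WT mouse 1 (adjusted p = 0.0516) or WT mouse 2 (0.149). Its sister gene Ccne2 had a log2 fold change of 1.18 (edgeR adjusted p = 0.0999). Slbp, whose protein binds the stem-loop, had 48.6 and 47.1 CPM in WT and 67.0 and 88.0 CPM in cKO. Both cKO libraries were higher, with a log2 fold change of 0.52 (SE 0.18, edgeR adjusted p = 0.162), and it passed without cKO mouse 1 (0.0326). Over the 22 genes, 18 were positive and the median was 0.26.

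Of 24 histone chaperones, which carry histones to DNA, 2 were called higher, against 1.44% of all genes. They were Chaf1b, of the assembly factor CAF-1 (log2 fold change 1.13, edgeR adjusted p = 0.0494), and Tonsl, a reader of new H4 behind the fork (1.58, adjusted p = 0.0475). Chaf1b lost its call without WT mouse 1, WT mouse 2 or cKO mouse 2, with adjusted p of 0.089, 0.201 and 0.0958, and with mouse number as a block it was 0.061. Tonsl lost it without WT mouse 1 or WT mouse 2, at 0.0743 and 0.199, and with the block it was 0.0643. Asf1b and Chaf1a, active in S phase, had values of 1.53 and 0.88 with edgeR adjusted p of 0.0749 and 0.0753. Hira and Daxx, which place H3.3 outside S phase, were at 0 and -0.05, but Ubn1 and Cabin1 were at 0.25 and 0.23. Asf1a and Rbbp4 were at -0.14 and 0.03. Over the 24 genes, 19 were positive, 4 were negative and the median was 0.24.

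Histone variant and replication-independent histone genes, many of whose messages carry poly(A) tails, gave 1 call among 11, lower in the cKO, against 1.6% of all genes. H3f3b, 1 of a pair of genes for H3.3, had 42295 and 31066 reads in WT, against 18968 and 20854 in cKO, and it was lower in the cKO (log2 fold change -1.01, SE 0.20, edgeR adjusted p = 0.0418). The call was lost without WT mouse 2 (adjusted p = 0.0692) or cKO mouse 2 (0.209). H1f10, a linker gene outside the clusters, followed with -1.20 (edgeR adjusted p = 0.089). The 11 genes had a median of 0.06, and 6 were positive.

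Markers of immune cells also moved with genotype in the bulge, and their part in the H1f2 result was not tested. Of 9 markers, 8 were tested, 8 were negative and 4 were called lower (Cd74, H2-Aa, H2-Ab1, Cd3g), against 1.6% of all genes. Their sum was 248 and 202 CPM in WT and 96.1 and 53.0 CPM in cKO, with none at 0 in any library. Melanocyte markers summed to 41.7 to 56.8 CPM and overlapped between groups, and germ cell markers, relevant because H1f6, H2bc1 and H2ac1 are known from testis, summed to 0 to 0.236 CPM. H1f6, H2bc1 and H2ac1 had 0 reads in the 4 bulge libraries.

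In hair germ SHERRY2, no histone gene passed the test, in a dataset where hardly any gene did. Of 67 members 56 are listed, 31 passed the filter and 0 were called by limma on log2(normalized count + 1), against 0.0077% of all 38953 genes. At an unadjusted p under 0.05 there were 2 members, against 4.62% of all genes. edgeR and DESeq2 on recovered reads also called 0 of 8 and 0 of 56 members. The median log2 fold change of the 31 was -0.32 (0.06 over all genes), with 12 positive and 19 negative.

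H1f2 had 90 and 10 reads (59.5 and 20.5 CPM) in WT and 22 and 46 reads (14.4 and 19.9 CPM) in cKO. In CPM both WT libraries were above both cKO libraries. On the deposited normalized scale, which the test used, the values were 88.1 and 15.8 in WT and 16.1 and 37.6 in cKO, so the order turned and WT mouse 2, the shallowest library, was the lowest. The log2 fold change was -0.59 (SE 0.63, limma adjusted p = 0.97) and turned to 0.61 without WT mouse 1. On recovered reads it was -1.20 with edgeR (adjusted p = 0.927) and -0.97 with DESeq2. Mouse numbers in this dataset are those of the column names, which were not matched to labelled mice. H1f4 had 18 and 14 reads in WT, against 19 and 90 in cKO.

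The lowest p among the histone members here was that of H3c15, an H3 gene, with 5 and 5 reads in WT, against 0 and 0 in cKO (log2 fold change -2.86, SE 0.81, limma adjusted p = 0.569). In the bulge the same gene had 6 and 6 reads in WT, against 4 and 2 in cKO. H4c3 had 4 and 2 reads in WT, against 0 and 1 in cKO (-1.75, limma adjusted p = 0.97), and H2bc21 had 9 and 11 in WT, against 11 and 4 in cKO (-1.11, limma adjusted p = 0.97). In CPM, groups did not overlap for 7 of the 31 tested members, against 30.5% of all genes, and on the normalized scale for 11, against 32.8%. Counts this small differ by single reads, and a count of 0 allows up to 3. Libraries of this dataset, the shallowest, had reads in 38272 to 42826 genes, against 21171 to 22959 in the bulge. Germ cell markers summed to 6.04 to 28.65 CPM here, against 0 to 0.236 CPM in the bulge. Muscle markers summed to 22.4 to 96.2 CPM, against 0.545 to 14.1 CPM in the bulge. H1f6 and H2bc1, known from testis, had 3 and 2 reads in all. The part of such reads in the small histone counts was not tested.

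SMART-seq had reads for all but 6 of the 67 members. Of 60 tested members, 0 passed between the libraries labelled cKO and WT, against 0% of 17547 genes (edgeR). At an unadjusted p under 0.05 there were 4 members, against 1.02% of all genes, and DESeq2 called 0 of 61. The median log2 fold change was -0.40 (-0.02 over all genes), with 55 negative and 5 positive. That direction rested on single libraries: the median was 0.20 without WT mouse 2 and 0.36 without cKO mouse 2, with 38 and 47 of 60 then positive. It was -0.88 without WT mouse 1 and -2.44 without cKO mouse 1.

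In each family, 1 library stood apart. The library labelled cKO mouse 2 was the lowest of the 4 in 56 of 60 members, against 30.2% of all genes, and under 50% of the mean of the other 3 in 52, against 10.2%. For the median member it held 15.4% of that mean (96.8% for the median of all genes). WT mouse 2 was the highest in 39 members and cKO mouse 1 in 20. The other library labelled cKO, mouse 1, was above the WT mean in 47 of 60 members, and the genotype groups overlapped for 53 of 60. Groups did not overlap for 7, against 23.9% of all genes.

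The level left in that library differed between families. Its median share of the mean of the other 3 was 10.95% for H2A, 10.98% for H2B and 11.03% for H3, 27.8% for H4 and 39.4% for H1. H1f5 and H1f1 were low there, at 4.33 and 3.33 CPM against 45.2, 84.2 and 102 CPM and 19.6, 66.8 and 68.8 CPM in the other 3. H1f2 and H1f4 kept more, at 115 CPM against 192, 206 and 265 CPM and at 114 CPM against 204, 211 and 240 CPM. H2ac25 was at 7.11 CPM against 7.28, 7.18 and 5.87 CPM, 105% of the mean of the others, the highest share of any member. H2bc21 was at 57.9%, H4c14 at 55.1%, H2bc4 at 53.4% and H4c9 at 51.5%. H1f6, with 0 to 14 reads in these libraries, was at 59.2%. H2ac25, H2bc21, H2bc4, H1f2 and H4c9 are also the members best read in the bulge, whereas H1f6, H4c14 and H1f4 had 0, 23 and 68 reads there.

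**Figure D4:**
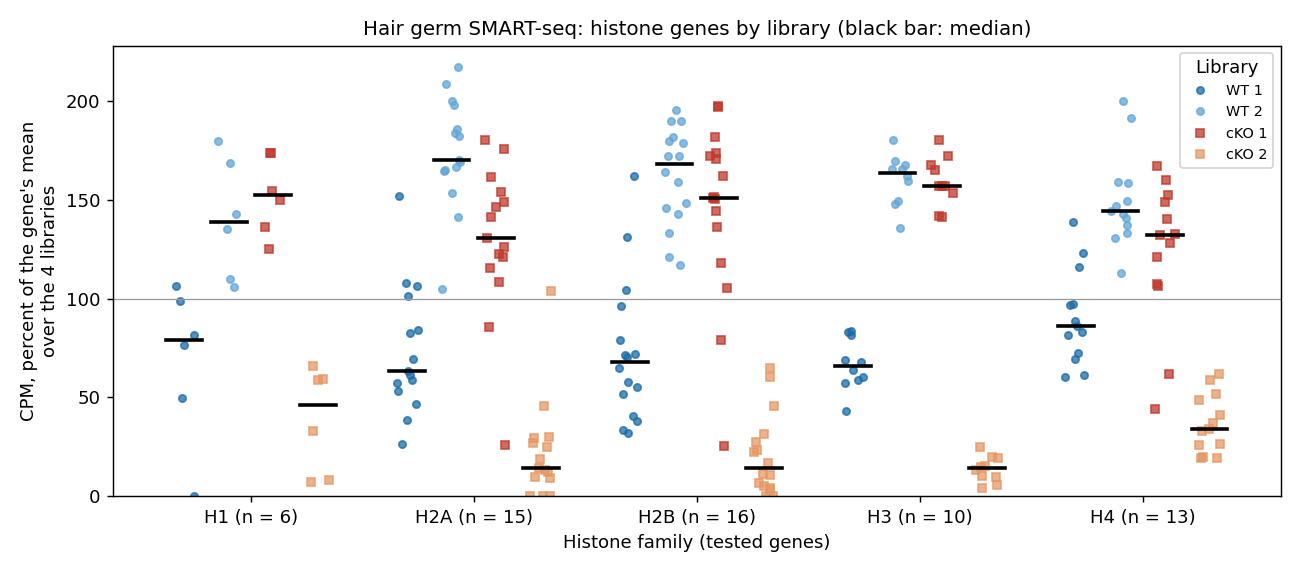
CPM of each tested histone gene in the 4 SMART-seq libraries, as a percent of that gene's mean over the 4, by family, with black bars for the median. Orange squares (the library labelled cKO mouse 2) sit at the bottom in all 5 families, lowest for H2A, H2B and H3, and a single H2A gene, H2ac25, stays near 100%.

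H1f2 in SMART-seq had a log2 fold change of -0.09 (SE 0.40, edgeR adjusted p = 1). Without cKO mouse 2 the value turned to 0.37. In the joint fit of bulge and SMART-seq, the difference of its genotype effect was 2.08 (SE 0.63, edgeR adjusted p = 0.625), the lowest p of 60 members. None of the 60 was called, against 0.0413% of 19371 genes, and 4 had an unadjusted p under 0.05, against 6.66%. Without SMART-seq cKO mouse 2, a fit chosen after seeing the data, the H1f2 difference was 2.55 (SE 0.53, edgeR adjusted p = 0.6), and 0 were called. Between bulge and hair germ SHERRY2, 0 of 22 members were called, against 0.119% of 26141 genes, and 5 had an unadjusted p under 0.05, against 7.48%. The H1f2 difference there was 0.85 (SE 0.60, edgeR adjusted p = 0.829).

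Cell cycle genes were lowest in the same SMART-seq library as the histone genes. S phase genes summed to 609 and 810 CPM in WT and 726 and 284 CPM in cKO, with 21 of 22 lowest in cKO mouse 2. Genes of G2 and M phase summed to 469 and 1115 CPM in WT and 1124 and 125 CPM in cKO, with 20 of 20 lowest there. Histone variant genes summed to 1264 and 1286 CPM in WT and 1380 and 965 CPM in cKO, and message factors to 782, 933, 916 and 828 CPM, a much smaller spread. Slbp was at 16.6 and 22.4 CPM in WT and 22 and 16 CPM in cKO.

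Cell type markers also moved between these libraries, and their part was not tested. Hair germ markers summed to 715 and 820 CPM in WT and 650 and 482 CPM in cKO, and 5 of 5 tested ones were lowest in cKO mouse 2. Bulge markers summed to 12580 and 6523 CPM in WT and 7622 and 12830 CPM in cKO. Without Krt15, which alone had 8459 CPM in cKO mouse 2, they were 7225 and 2599 CPM in WT and 4157 and 4374 CPM in cKO. Immune markers summed to 40.2, 25.3, 41.6 and 131 CPM in the same order of libraries, and melanocyte markers to 159, 185, 89.0 and 280 CPM. Rn7sk, an RNA without a poly(A) tail, had 25390 and 24480 CPM in WT and 16380 and 32290 CPM in cKO, so it was highest in cKO mouse 2. Of the other 5 genes in the list of RNAs without tails that had reads, Rn7s1, Rn7s2 and Rpph1 were also highest there, whereas Rny1 and Rny3 were highest in WT mouse 2, and Rny3 was lowest in cKO mouse 2. In the bulge libraries Rn7sk had 4.91 to 23.5 CPM. Rpph1 had 0.818 to 13.8 CPM in the bulge and 0.149 to 1.56 CPM in SMART-seq.

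**Figure D5:**
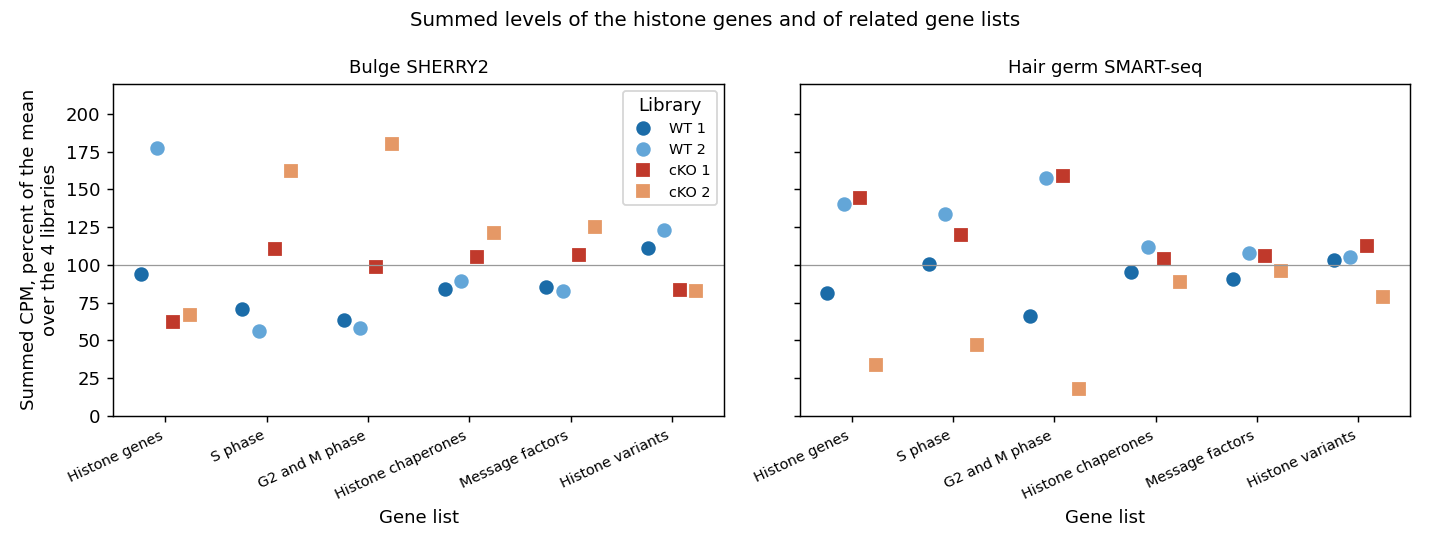
Summed CPM of the histone genes and of 5 related lists as a percent of the mean over the 4 libraries, in the bulge (left) and in hair germ SMART-seq (right). In SMART-seq the histone, S phase and G2 and M phase sums fall together in the library labelled cKO mouse 2, while in the bulge the S phase sum is highest in cKO mouse 2 and the histone sum in WT mouse 2.

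The 4 lowest p-values in SMART-seq belonged to members low in both libraries labelled cKO. H2ac23 had 69 and 76 reads in WT, against 11 and 4 in cKO (log2 fold change -3.14, SE 0.57, edgeR adjusted p = 1). H2bc24 had 61 and 59 reads in WT, against 9 and 4 in cKO (-3.04, SE 0.55, edgeR adjusted p = 1). In both genes the WT libraries were close to each other and the groups did not overlap. H4c9 had 326 and 265 reads in WT, against 136 and 86 in cKO (-1.23, SE 0.26), and H4c17 had 66 and 86 in WT, against 22 and 11 in cKO (-2.07, SE 0.50), also with edgeR adjusted p of 1. With no filter on low counts, H2ac23 and H2bc24 were called (adjusted p = 0.00784 and 0.0331). In the bulge H4c9 was tested and not called, as given above, and the other 3 were too thinly read to test: H2ac23 had 0 reads, H2bc24 had 12 and H4c17 had 2 over the 4 libraries. Histone coding sequences are near copies of each other within a family, so reads may have been split or lost between copies.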

How the data were processed

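The members and gene lists were chosen with earlier results of these data known. The bulge and SMART-seq tables hold read counts per gene, and the bulge table also FPKM, as the authors deposited them. The hair germ SHERRY2 table holds a deposited normalized signal (counts divided by a size factor), from which whole reads were recovered (100% of values within 0.01 reads). It also holds the authors' log2 fold changes, p-values and a test score, laid out as a DESeq2 result and not used here. Its columns were assigned to genotypes by name, and their mouse numbers are those of the column names. Per the submitters' processing notes, STAR, HISAT2, featureCounts, Subread and DESeq2 were used with GRCm38, mm10 and GRCm39. Strand use in counting, the annotation and the handling of reads that fit several genes are not stated in the sources at hand.

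Counts were tested with edgeR 4.0.16 in R 4.3.3 (TMM scaling, filterByExpr, quasi-likelihood, two-sided). The hair germ SHERRY2 signal was tested with limma 3.58.1 on log2(value + 1), keeping genes whose mean reached 1, which shrinks the fold changes of low genes. This test was foreseen for normalized values. Adjusted p-values follow Benjamini-Hochberg over all genes, with a threshold of 0.05. The edgeR standard error is the log2 fold change divided by the square root of F. Joint edgeR fits tested dataset-by-genotype terms. Alternatives were DESeq2 1.42.0, other size factors, filters and pseudocounts, a mouse-number block and each library left out. Scripts were tested on simulated data.

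Genes were named by a rule: the 3 highest members per family in the bulge, members with an adjusted p under 0.05, the 10 lowest p in the bulge and the 3 lowest in each hair germ dataset, and from other lists the called genes and the 2 with the lowest p. Further members were named after their values were seen. The 16 m6A libraries were not analysed here.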

Additional observations from a re-analysis of the deposited data

How the results depend on the processing

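The H1f2 decrease in the bulge kept its direction and its call under all 8 alternatives. The number of called members in the bulge was 1 to 3 when 1 library was left out and 3 with no filter on low counts, where H2bc4 and H4c16 joined H1f2. All called bulge genes numbered 476, 1191 with DESeq2, 1549 with no filter, and 218 to 1601 with 1 library left out. In hair germ SHERRY2, 0 members were called under any alternative. All called genes there numbered 3, and 0 with a pseudocount of 0.1, with no filter on the mean or with DESeq2 on recovered reads, 63 with edgeR on recovered reads, and 0 to 105 with 1 library left out. In SMART-seq, no filter on low counts called 2 members (H2ac23, H2bc24) and 30 genes, and 0 otherwise. With 1 library left out, the log2 fold change ranged from -0.03 to 0.34 for H2ac25 in the bulge, from -1.79 to 0.61 for H1f2 in hair germ SHERRY2, and from -0.78 to 0.37 for H1f2 in SMART-seq. The cause was not tested.

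Mouse numbers are shared between genotypes, but nothing says that they pair mice. Deviations of same-numbered libraries correlated at -0.0851 in the bulge, 0.227 in SMART-seq and -0.416 in hair germ SHERRY2, with 2 numbers each. With the number as a replicate block, H1f2 in the bulge had -2.12 (edgeR adjusted p = 0.0359), called members were 1, 0 and 0, and all called genes were 506 in the bulge, 5 in hair germ SHERRY2 and 0 in SMART-seq. With 2 mice a group and a median of 7 reads per member in the bulge, low read counts limit most members.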

Other observations

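H4c16, an H4 gene on chromosome 6, had 1 and 1 reads in WT, against 2 and 67 in cKO bulge libraries, so its signal came from cKO mouse 2 alone, and it did not pass the filter. In SMART-seq it had 380 and 472 reads in WT, against 546 and 134 in cKO. In the bulge, 15 members had 10 or more reads and were not tested. Of these, 11 were highest in cKO mouse 2, as were 14 of all 27 members with 10 or more reads. The share among all genes chosen this way was not computed. The filter can drop low genes whose reads sit mainly in 1 library, which favours such members here. The 15 summed to 2.93 and 2.32 CPM in WT and 2.69 and 10.3 CPM in cKO. H4c16 gave 67 of their 204 reads in cKO mouse 2. cKO mouse 2 also had the highest S phase sum of the bulge.

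A stretch of chromosome 13 from 21970996 to 22021700 in the bulge table, chosen after values were seen, holds 8 tested members (H2ac22, H2bc22, H2bc23, H2ac23, H4c17, H4c18, H2ac24, H2bc24). In the SMART-seq library labelled cKO mouse 1, 4 of the 8 were under 50% of the WT mean, as was 1 of the 52 other members, H4c9. The median there was 60.5% for the 8 and 133% for the 52. H2bc24 stood at 14.3%, H2ac23 at 14.4% and H4c17 at 27.2%, while H2ac22 and H2ac24 were above the WT mean. The difference was not tested.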
